A study of Drosophila melanogaster with 2 samples.

Results

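Cytoplasmic ribosomal protein genes were taken as the protein-coding genes whose symbol begins with RpL or RpS and a digit, or with RpLP, plus sta, which encodes the small-subunit protein homologous to the laminin receptor. The rule gave 93 of 13945 protein-coding genes on the chromosome arms, 54 for the large subunit and its relatives and 39 for the small subunit. The data are chromatin immunoprecipitation peaks of Gug, also called Atrophin, a corepressor that reaches DNA through other proteins. Whole prepupae (1 day) of the strain Gug-GFP, whose transgene makes a Gug-eGFP fusion, were immunoprecipitated with antibodies to GFP in 2 biological replicates. Both replicates come from the same fly line, sex was not collected, and there is no second condition. Peaks of all tissues are mixed in whole animals, so a peak present in few cells and a weak peak present in many cannot be told apart.

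Ribosomal proteins make up the body of the large and small ribosomal subunits around the ribosomal RNAs, and nearly all are needed in equal amounts in every growing cell. Loss of 1 copy of many of these genes gives the Minute phenotype of slow development and thin bristles. In Drosophila their promoters often start transcription at a pyrimidine-rich TCT initiator, read by a TRF2-containing complex, and many are bound by M1BP or DREF.

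The peaks were deposited as lists thresholded on the irreproducible discovery rate (IDR), a measure of how well a peak's rank repeats between 2 rankings. There were 5753 peaks for both replicates together, 3827 for replicate 1 and 4000 for replicate 2. A list of 1 replicate cannot rest on agreement between the 2 replicates, and which rankings were compared for each list is not stated here. A gene was counted as having a peak when the summit of a peak of the joint thresholded list lay within 1000 bp of an annotated transcript start. Such a peak was found at 31 of the 93 ribosomal protein genes, 33.3% (95% exact binomial interval 23.9 to 43.9, counting error only), where 18.9% of all protein-coding genes had one. The interval treats genes as independent draws and is a description, not a test. Of the 9 strongest of the 31 peaks, 6 lay in the intergenic gaps beside RpL34b, RpS20, RpS28b, RpL32, RpS27 and RpL14. These gaps are printed here because the summits sit in them, upstream of the ribosomal protein gene and, in each case, close to the start of a gene facing the other way. Sequences are from the RefSeq dm6 assembly, 5′ to 3′ on the strand of the ribosomal protein gene, and hold up to 100 bases without an annotated exon on either side of the summit. Capitals mark the 11 bases centred on the summit. The stretches are chr3R:9401306-9401494 (minus strand), chr3R:20821883-20822083 (plus strand), chrX:9553751-9553931 (plus strand), chr3R:30046222-30046422 (minus strand), chr3R:25247515-25247657 (minus strand) and chr3L:8600880-8601005 (plus strand).
RpL34b: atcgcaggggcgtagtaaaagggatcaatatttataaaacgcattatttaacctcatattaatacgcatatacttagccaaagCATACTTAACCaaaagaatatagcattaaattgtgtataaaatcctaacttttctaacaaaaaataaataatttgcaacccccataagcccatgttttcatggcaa
RpS20: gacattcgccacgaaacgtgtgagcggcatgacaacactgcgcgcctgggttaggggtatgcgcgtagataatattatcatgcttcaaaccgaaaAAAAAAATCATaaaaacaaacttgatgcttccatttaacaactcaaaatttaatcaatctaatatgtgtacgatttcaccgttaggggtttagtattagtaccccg
RpS28b: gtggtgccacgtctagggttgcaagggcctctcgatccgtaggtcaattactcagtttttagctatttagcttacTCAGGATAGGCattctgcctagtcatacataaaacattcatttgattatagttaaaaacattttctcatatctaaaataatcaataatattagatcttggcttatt
RpL32: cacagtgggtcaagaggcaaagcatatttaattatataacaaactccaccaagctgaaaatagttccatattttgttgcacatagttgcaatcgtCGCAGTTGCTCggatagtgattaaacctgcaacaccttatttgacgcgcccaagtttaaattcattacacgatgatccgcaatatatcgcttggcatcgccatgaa
RpS27: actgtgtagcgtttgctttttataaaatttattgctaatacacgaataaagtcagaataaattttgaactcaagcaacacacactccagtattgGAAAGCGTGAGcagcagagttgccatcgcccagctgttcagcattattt
RpL14: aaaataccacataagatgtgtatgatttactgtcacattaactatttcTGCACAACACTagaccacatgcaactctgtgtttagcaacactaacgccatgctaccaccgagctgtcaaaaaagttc

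The RpL34b stretch had a GC content of 30.7% and holds 3 copies of the TATA-box letters TATAAA on either strand, while the others had 34.8% to 40.3%. Of these 6 stretches, only the RpS27 stretch also held TATAAA, and it alone held AAGTCA, the core of the site of Tailless, a nuclear receptor that binds Gug. Neither TATCGATA nor CACGTG nor GGTCACAC was found in any of the 6. These letters are descriptions of the windows and say nothing of binding.

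RpL34b encodes 1 of a pair of large-subunit proteins, and its peak had the highest signal of the family. The deposited signal, a value of the peak caller with no unit, was 501.1 for both replicates together, 207 in the list of replicate 1 and 287 in that of replicate 2. The summit at 3R 9401406 lay 180 bp upstream of RpL34b and 89 bp upstream of CG8132, which faces the other way. The peak was in the thresholded list of each replicate and ranked 222 of 5753. A second, weaker summit lay 880 bp downstream of the nearest RpL34b start, beyond the 3′ end of the gene, with a signal of 137.

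RpS19b, the relative of the small-subunit protein RpS19a that is expressed mainly in germ cells, came next with a signal of 491, with 250 in replicate 1 and 240 in replicate 2. Its summit at 3R 23934438 lay 908 bp upstream of RpS19b, inside an intron of CG5854 and 526 bp downstream of that gene's start. It is the farthest summit within the 1000 bp limit. Just outside the limit were RpS28a, whose nearest thresholded summit was 1354 bp away, and RpS25, at 1570 bp.

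RpS20 had a signal of 266, with 98.1 in replicate 1 and 171 in replicate 2, from a summit 198 bp upstream of its start and 135 bp from that of CG17271. RpS28b had 231, with 133 and 94.8, from a summit 792 bp upstream of it and 81 bp from the start of l(1)G0320. A second, weaker summit of RpS28b lay 7 bp upstream of its start with a signal of 110. RpL32, whose transcript is a common reference in fly gene expression work, had 199, with 90.4 and 112, midway in the 309 bp between its starts and CG7943. The 6 genes with the highest signals were all in the thresholded lists of both replicates, and replicate 1 was the higher at 2 of them and replicate 2 at 4.

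RpS27 was the strongest peak that lay nearer to the ribosomal protein gene than to any other coding gene. Its summit was 44 bp upstream of the start and 100 bp from that of Nup37, a nucleoporin gene, with a signal of 195 (85.0 and 97.4 in replicates 1 and 2). RpL41, the shortest ribosomal protein of eukaryotes, had 166 (90.9 and 75.2) from a summit 162 bp upstream that lies 20 bp from a start of the sodium channel gene NaCP60E. RpL7 had 162 (54.7 and 107) from a summit 15 bp from its start, and RpL14 had 152 (94.5 and 55.9), 73 bp upstream of itself and 54 bp from Nelf-E, a gene for a subunit of the pausing factor NELF. RpL17 had 141 (73.0 and 69.3), 4 bp upstream of its start. All 5 were in the thresholded lists of both replicates.

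**Figure D1:**
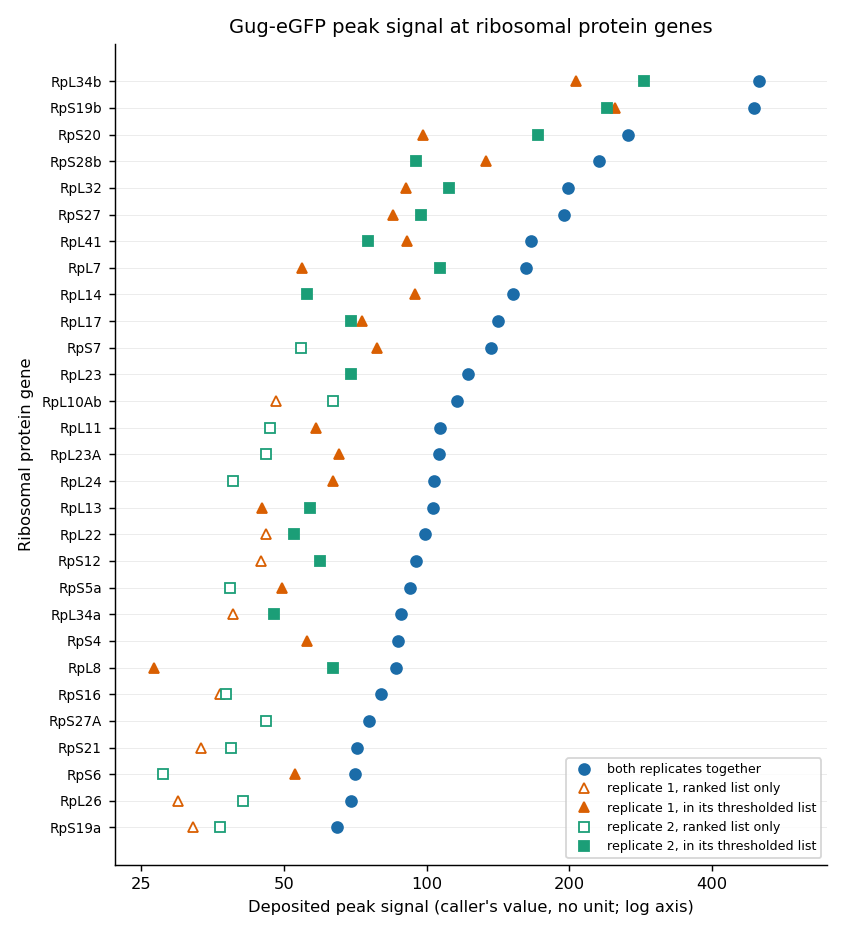
Deposited peak signal (log axis) at 29 of the 31 ribosomal protein genes with a thresholded summit within 1000 bp, for both replicates together (circles), replicate 1 (triangles) and replicate 2 (squares); filled symbols are in that replicate's thresholded list, open ones only in its ranked list. RpL34b (501.1) and RpS19b (491) stand above the rest, and the lowest is RpS19a at 64.8.

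The signals of both replicates together ran from 64.8 at RpS19a to 501.1 at RpL34b, with a median of 106 against 140 for the strongest peaks of all coding genes with one. Of the 31 genes, 4 had a signal over 200, 14 one from 100 to 200 and 13 one under 100. The median rank was 3106 of 5753, a little below the middle of the list, and the highest was 222. Among the 1000 strongest peaks, 4 of the 93 genes (4.3%) had one within 1000 bp, near the 5.11% of all coding genes.

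Support by the single replicates was lower. Of the 31 peaks, 13 were in the thresholded list of both replicates, 8 in that of replicate 1 only, 4 in that of replicate 2 only and 6 in neither, where a summit within 100 bp counted as the same peak. Peaks supported by both replicates were thus found at 14% of the 93 genes (7.66 to 22.7), and at 11.6% of all coding genes, so this share was near the background of 11.6%. Among genes with a peak, 41.9% of the ribosomal protein genes and 61.3% of all coding genes had it in both lists. Taken alone, the thresholded list of replicate 1 put a summit near 22 of the 93 genes (23.7%, 15.5 to 33.6), where 14.3% of coding genes had one. That of replicate 2 put one near 18 (19.4%, 11.9 to 28.9), where 14.9% of coding genes had one. The interval of replicate 2 includes the value for coding genes.

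The 13 genes in both lists included RpL34b, RpS19b, RpS20, RpS28b, RpL32, RpS27, RpL41, RpL7, RpL14, RpL17, RpL13 and RpL8. Those in replicate 1 only included RpS7, RpL11, RpL23A, RpL24, RpS5a, RpS4 and RpS6. Those in replicate 2 only were RpL23, RpL22, RpS12 and RpL34a. RpL10Ab, RpS16, RpS27A, RpS21, RpL26 and RpS19a were in neither, with signals from 64.8 to 116. RpS6, the phosphorylation target of S6 kinase, leaned most towards replicate 1, with 52.7 against 27.7 in replicate 2, and RpL8 leaned most the other way, with 26.6 and 63.5. RpS4 had no peak within 100 bp in the ranked list of replicate 2, and RpL23 and RpS27A had none in that of replicate 1. Their −log10 IDR in the joint list was still 2.82 (RpS4), 4.23 (RpL23) and 2.585 (RpS27A). Passing the joint threshold thus does not by itself show a peak at that summit in each replicate.

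The summits fell into 2 kinds of place. For 19 of the 31 genes the nearest coding start was the gene's own, and the summit was at most 212 bp from it, with 14 of them within 100 bp. RpS27A, a fusion of ubiquitin and a small-subunit protein, is counted here, although it shares its start with Ip259. For the other 12 genes a neighbour's start was nearer, and the strongest summit lay upstream of the ribosomal protein gene by a median of 189 bp. Among these, RpS28b and RpL23 also had a weaker summit nearest their own start, 7 and 239 bp upstream. By the strongest summit, the own start was nearest for 61.3% of the 31 genes, against 72.2% of 2638 coding genes with a peak. For strongest summits within 100 bp the shares were 93.3% and 93.9%, and beyond 100 bp 31.25% and 67.4%. The median signal was 92.4 (64.8 to 195) in the first set and 159 (88.2 to 501.1) in the second, with overlapping ranges. Both replicates listed the peak for 5 of 19 genes in the first set and for 8 of 12 in the second.

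Replicate support differed in count between the 2 sets. All 8 peaks listed by replicate 1 only were in the first set, and 3 of the 4 listed by replicate 2 only were in the second. These counts, and those of peaks listed by both replicates in each set, stand without the same split over all coding genes. They are descriptions only. The ratio of the replicate 2 signal to the replicate 1 signal had a median of 0.987 over 17 genes of the first set (0.526 to 2.39) and of 1.23 over 11 genes of the second (0.592 to 1.75), against 1.24 over 5075 summits of the series. The ranges of the 2 sets overlap and the difference was not tested. The number of genes in the first set depended on the list used, with 14 from replicate 1, 7 from replicate 2, 10 at an IDR of 0.001 or less and 0 among the 1000 strongest peaks.

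RpL8, which lies at the peptidyl transferase centre, was in both lists, with 86.0 from a summit 212 bp upstream and a second summit 12 bp upstream with 46.8. Its signal was below the median of 112 over all summits of the series.

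The 6 genes in neither replicate list still had a peak in the joint list. RpL10Ab had 116 (48.1 in replicate 1 and 63.4 in replicate 2) from a summit 405 bp upstream, which lay 171 bp from the starts of both CG11597 and CG5946. RpS16 had 80.0 (36.7 and 37.8) and RpL26 69.2 (29.9 and 41.1), each from a summit in its own intron, at 59 and 94 bp. RpS21 had 71.2 (33.4 and 38.7) from its 5′ UTR, and RpS19a had 64.8 (32.2 and 36.6) from 122 bp upstream. RpS27A had 75.4 from 107 bp upstream, with 45.8 in replicate 2. In the 5 genes with a peak in both ranked lists, replicate 2 was the higher.

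Of the genes listed by 1 replicate, RpS7 had 137 (78.7 and 54.5) from 11 bp upstream and RpL22 had 99.2 (45.9 and 52.4). RpS5a had 92.4 (49.5 and 38.5) from 81 bp upstream. RpL23 had 122 from a summit 455 bp upstream that lay 101 bp from CG13531, with 69.2 in replicate 2, and a second summit at −239 bp with 95.1.

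**Figure D2:**
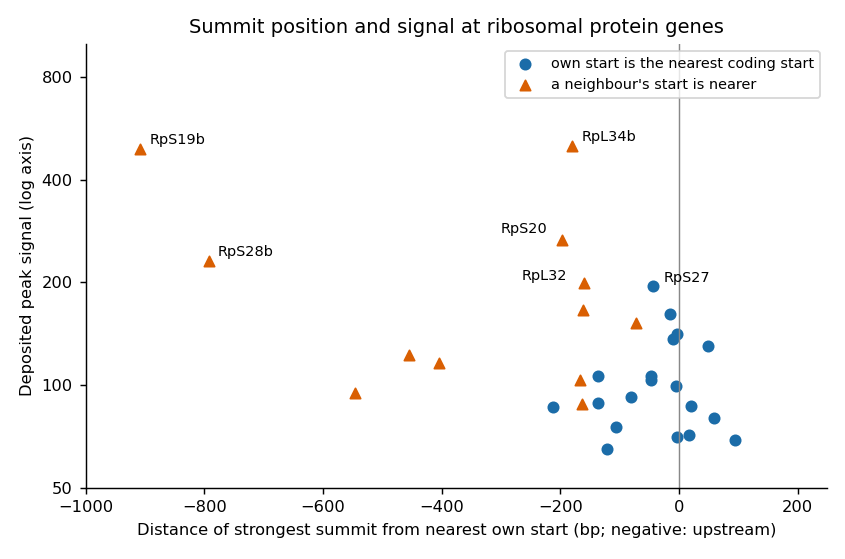
Signal of the strongest summit (log axis) against its signed distance from the nearest start of the ribosomal protein gene in bp, for the 31 genes with a peak; circles are genes whose own start is the nearest coding start (19) and triangles those with a nearer neighbour (12). The circles sit within 212 bp of the start, and the 5 highest signals are all triangles.

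For all 12 genes the nearer start was that of the gene facing the other way, tied at RpL10Ab with CG11597. RpL13 shares its promoter with Dref, the gene for the DRE-binding factor, whose start is 84 bp upstream of it. The summit, with a signal of 103 (45.0 and 56.6 in replicates 1 and 2), lay 83 bp inside Dref in its 5′ UTR and 167 bp from RpL13, in the thresholded lists of both replicates. RpL34a, the other RpL34 gene, had 88.2 (39.2 and 47.6) from a summit 66 bp from Trmt61, a tRNA methyltransferase subunit gene. RpS12, needed for the elimination of Minute cells by cell competition, had 94.8 (44.8 and 59.5) from a summit 118 bp from Adk2 and 546 bp from its own start.

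A coding gene with a start facing the other way within 1000 bp upstream was present for 56 of the 93 ribosomal protein genes, 60.2%, and for 36.2% of all coding genes. Peaks were at 24 of these 56 genes, 42.9% (29.7 to 56.8), where 30.3% of the 5052 coding genes with such a neighbour had one. Without such a neighbour, 7 of 37 ribosomal protein genes had a peak, 18.9% (7.96 to 35.2), where 12.4% of 8893 coding genes did. The ribosomal protein genes were above the coding genes in both strata, but both intervals include the value for coding genes.

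The 7 genes with a peak and no facing neighbour had their own start as the nearest. RpL17 (summit 4 bp upstream, signal 141), RpL22 (6 bp, 99.2), RpL23A (47 bp, 106) and RpL24 (47 bp, 104) are examples. RpS4 (87.1) had its summit 20 bp downstream of the start in its 5′ UTR, and RpL11, a protein of the 5S ribonucleoprotein particle, had 107 from 137 bp upstream. The other is RpS27A. Of the 6 before it, RpL17 was in the lists of both replicates, RpL22 in that of replicate 2 and the other 4 in that of replicate 1.

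The summits close to a start were counted next, without a test. A thresholded summit lay within 100 bp of a start at 17 of 93 ribosomal protein genes, 18.3% (11.0 to 27.6), where 4.22% of coding genes had one. In bins of 100 bp, 14% of the family had a summit in the 100 bp just upstream of a start against 2.87% of coding genes, and 10.8% against 6.42% in the bin before that. Downstream, 5.38% had one in the first 100 bp against 1.41%. In the bins from 100 to 800 bp downstream no ribosomal protein gene had a thresholded summit, where 0.287% to 0.552% of coding genes had one per bin. From 800 to 900 bp downstream the shares were 1.075% and 0.516%, the former being the second RpL34b summit beyond the 3′ end of that gene. Of the 15 genes whose strongest summit was within 100 bp, 5 were in both replicate lists (33.3%), where 55.2% of the 478 coding genes of that kind were. The distance of 100 bp was chosen after the values had been seen.

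**Figure D3:**
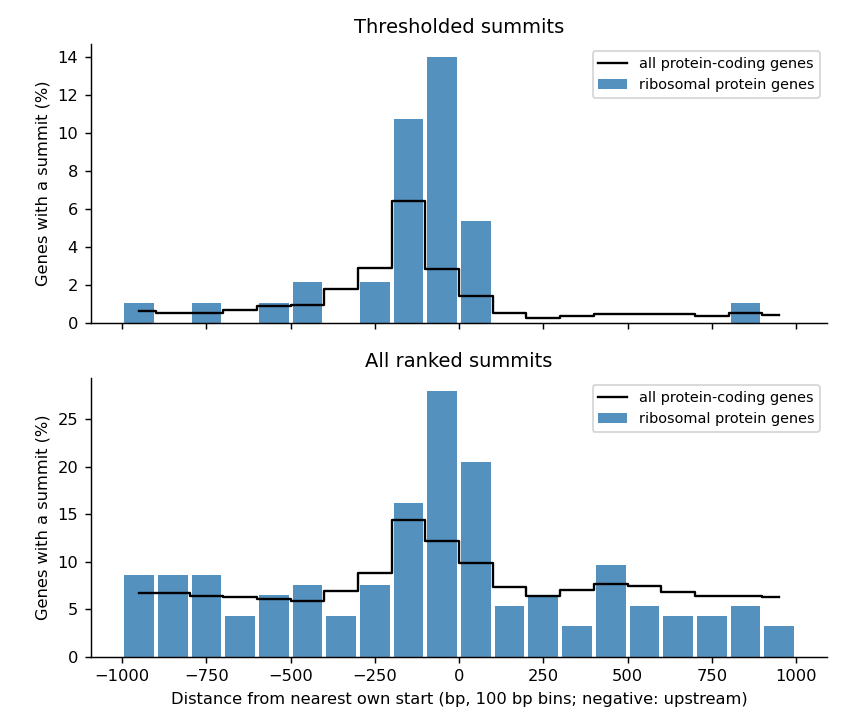
Percent of genes with a summit in each 100 bp bin of signed distance from the nearest own start, for the 93 ribosomal protein genes (bars) and all 13945 coding genes (line), from thresholded summits (top) and from all ranked summits (bottom). In the bin just upstream of the start the bars reach 14% and 28.0%, against 2.87% and 12.2% for coding genes.

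The longer ranked list, which holds 65647 peaks before any reproducibility threshold, was read in the same way. A ranked summit lay within 1000 bp of 75 of the 93 genes, 80.6%, where 67.6% of coding genes had one, and within 100 bp of 44, 47.3% (36.9 to 57.9), where 21.1% of coding genes did. Of the 62 genes with no thresholded peak, 44 had a ranked one within 1000 bp, 26 of them with a summit within 100 bp of a start. No share over coding genes without a thresholded peak is given beside these counts or those near the threshold below, so they are descriptions only. In bins, 28.0% of the family had a ranked summit just upstream of a start against 12.2% of coding genes, while in the bin before that the shares were 16.1% and 14.4%. From 100 to 800 bp downstream, where no thresholded summit lay, 3.23% to 9.68% of the family had a ranked one in a bin, against 6.35% to 7.62% of coding genes. The strongest ranked peaks of the 44 genes had signals from 3.13 to 78.1, with a median of 43.1.

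Of the 44, 12 lay past or within a factor of 10 of the threshold of the joint list, which by the deposited values is an IDR of 0.01, or 2 on a −log10 scale. RpL13A had 2.18 with a summit on its start (signal 60.5), past the threshold, yet its peak was not in the thresholded list, as for 102 ranked peaks on the arms in all. RpS23 had 1.96 (signal 65.0, 13 bp from the start) and RpL7A 1.85 (62.3, 20 bp). RpL19, RpL37-1, RpL28, RpL27A, RpL36, RpS2, RpLP0 of the ribosomal stalk, sta and RpL30 had 1.09 to 1.78. In 10 of these 12 genes the strongest ranked summit was within 100 bp of a start, RpL28 (at −275 bp) and RpS2 (at 119 bp) being the exceptions.

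The other 32 had −log10 IDR values below 1. They included RpL3, RpL4, RpL6, RpL10Aa, RpL12, RpL18, RpL22-like, RpL27, RpL29, RpL31, RpL35, RpL37-2, RpL39, RpL40, RpLP0-like, RpLP1, RpS3, RpS9, RpS10a, RpS10b, RpS13, RpS14a, RpS14b, RpS15Aa, RpS18, RpS25, RpS26, RpS28-like, RpS28a and RpS29. RpL31 had the highest signal among them, 70.9, at 52 bp upstream, with a −log10 IDR of 0.191. RpL40, the other ubiquitin fusion, had 37.0 at −595 bp.

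No ranked peak lay within 1000 bp of the remaining 18 genes, namely RpL5, RpL7-like, RpL9, RpL10, RpL15, RpL21, RpL24-like, RpL35A, RpL36A, RpL37A, RpL38, RpLP2, RpS3A, RpS5b, RpS15, RpS15Ab, RpS24 and RpS30. A ranked peak within 1000 bp was present at 80.6% of the family and at 67.6% of all coding genes. For 6 of the 18 genes, RpL5, RpL10, RpL15, RpL21, RpL38 and RpS3A, the nearest thresholded summit was over 100 kb away. No share over all coding genes is given beside these 6, so they are a description only. RpS3A is on chromosome 4, where 1.25% of 80 coding genes had a peak. RpL15 was the most distant, at 4388363 bp on 3L.

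**Figure D4:**
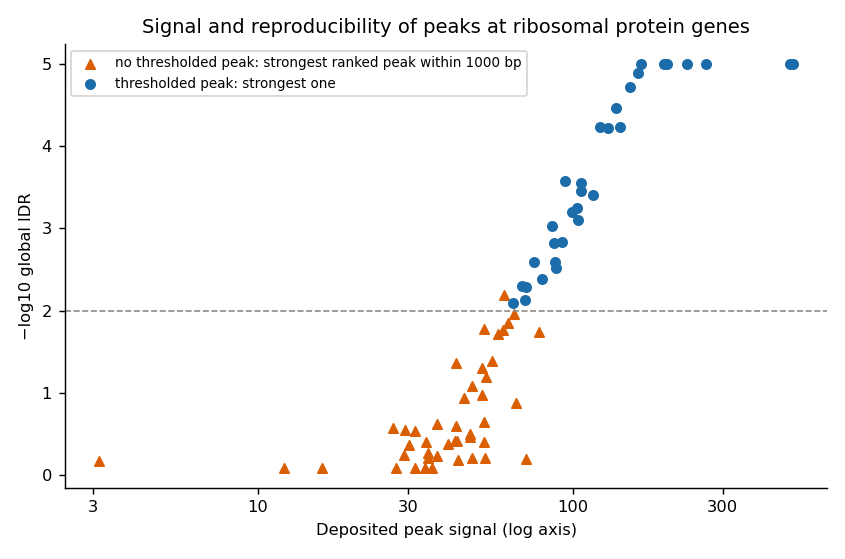
−log10 global IDR against deposited signal (log axis) for ribosomal protein genes, with the strongest thresholded peak where there is one (circles, 31 genes) and otherwise the strongest ranked peak within 1000 bp (triangles, 44 genes); the dashed line is the threshold of 2. RpL13A is the triangle above the line, at 2.18, and the other triangles are below it.

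Both subunits contributed. Peaks were at 17 of 54 large-subunit genes and relatives (31.5%, 19.5 to 45.6) and at 14 of 39 small-subunit genes (35.9%, 21.2 to 52.8). By arm the share ran from 5 of 21 on 2R (23.8%) and 5 of 19 on 2L (26.3%) to 6 of 15 on X (40.0%) and 7 of 14 on 3L (50%), with 8 of 23 on 3R (34.8%), where coding genes had 17.3% to 21.3% on these arms. The intervals of the arms overlap.

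The 27 genes in 13 sets of relatives with a shared symbol stem included 10 with a peak (37.0%), where the whole family had 33.3% and all coding genes 18.9%. In RpL34 and RpS19 both genes had one. The stronger peak was that of RpL34b (501.1 against 88.2) and of RpS19b (491 against 64.8), and all but the RpS19a peak lay nearer a neighbour. In 6 sets 1 gene had a peak. These were RpS5a and not RpS5b, whose transcripts are enriched in the female germ line, RpL22 and not the germline-enriched RpL22-like, RpL10Ab and not RpL10Aa, and RpS28b and not RpS28a or RpS28-like. RpL24 and RpL7 had one and not RpL24-like or RpL7-like, relatives that in yeast act in ribosome assembly. RpL37-1 with RpL37-2, RpLP0 with RpLP0-like, RpS10a with RpS10b, RpS14a with RpS14b and RpS15Aa with RpS15Ab had no peak.

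Coding sequences of the 2 RpS14 genes were 97.8% identical and those of the 2 RpS15A genes 98.2%, while the other pairs were at 44.9% to 78.2%. Reads from the near-identical pairs may not be placed to 1 copy, and how such reads were treated is not given in the sources used here.

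Promoters of the family, from 250 bp before to 50 bp after the start used by most transcripts, were searched for motifs of known promoter factors. The DRE, TATCGATA, was in 28 of 93 promoters (30.1%) against 9.24% of all coding promoters, with 29.0% for genes with a peak and 30.6% for those without. A TCT initiator, here CTTTT on the gene strand with its C within 10 bp of the start, was at 43.0% against 4.10%, with 38.7% and 45.2%. The Motif 1 core GGTCACAC, bound by M1BP, was in 1 of 31 promoters with a peak (3.23%) and 13 of 62 without (21%), against 7.79% of coding promoters. The E-box CACGTG was in 6 of 31 (19.4%) and 5 of 62 (8.06%), against 4.24%. GAGAG, read by GAGA factor, was in 17.2% of the 93 against 30.3%, AAGTCA in 12.9% against 16.0% and TATAAA in 45.2% against 45.6%. All but CTTTT were searched on both strands.

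Within 75 bp of the summit, TATCGATA was at 4 of the 31 peaks (12.9%), among them RpL34a, RpS6 and RpS7, against 1.87% of 2089 summits within 500 bp of any start. CACGTG was at 2, RpL24 and RpL7 (6.45% against 1.72%). GGTCACAC was at 0 of 31 (0.862% of the 2089), GAGAG at 9.68% (17.9%), AAGTCA at 3.23% (6.99%) and TATAAA at 22.6% (30%).

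The stretches around the summits of RpL34a, RpS6 and RpL24 are printed because they hold the DRE or E-box letters, in capitals here, without an exon. They are chr3R:26059330-26059495 (minus strand), chrX:7901332-7901434 (minus strand) and chr2L:13395132-13395278 (minus strand) on the RefSeq dm6 assembly, 5′ to 3′ on the strand of the ribosomal protein gene.
RpL34a: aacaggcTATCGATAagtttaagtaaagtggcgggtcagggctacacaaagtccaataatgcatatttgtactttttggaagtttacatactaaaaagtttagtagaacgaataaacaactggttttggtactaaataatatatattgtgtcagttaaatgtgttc
RpS6: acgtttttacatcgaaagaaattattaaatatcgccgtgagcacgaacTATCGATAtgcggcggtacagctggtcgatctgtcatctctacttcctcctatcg
RpL24: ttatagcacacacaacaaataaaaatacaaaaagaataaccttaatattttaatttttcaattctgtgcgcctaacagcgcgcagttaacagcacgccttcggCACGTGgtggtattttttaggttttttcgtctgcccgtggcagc

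The RpL34a and RpS6 stretches hold TATCGATA, and the RpL24 stretch holds CACGTG. In the RpL34a stretch the letters lie at the end beside the start of Trmt61, away from the RpL34a start. RpL24 had a signal of 104 for both replicates together, 63.4 in replicate 1 and 39.0 in replicate 2, and RpS6 had 70.6.

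Genes that act with the ribosomal proteins were compared by lists chosen with earlier results of these data known. Mitochondrial ribosomal protein genes had peaks at 22 of 73 (30.1%, 19.9 to 42.0), a share close to that of the cytoplasmic set, with 79.5% having a facing neighbour. Their highest signals were far above those of the cytoplasmic genes, with mRpL41 at 1889, mRpS10 at 1560, mRpS23 at 1400 and mRpL23 at 1240. Their median was 105, and 9 of the 22 were in both replicate lists. A ranked summit lay within 100 bp of a start at 16.4% of them, where the cytoplasmic genes had 47.3% and all coding genes 21.1%.

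Genes known to regulate ribosomal protein genes, or to respond to their loss, had peaks at 10 of 15 (66.7%, 38.4 to 88.2). These included Trl, which encodes GAGA factor (signal 354), larp, whose human relative binds the mRNAs of ribosomal proteins (297), Irbp18 (248) and its partner Xrp1 (73.5), which act in the response to Minute mutations. They also included the Myc antagonist gene Mnt (235), Trf2 (228), M1BP (87.3), S6k (91.9) and BEAF-32 (102.1). Dref (103) is in this list through the summit it shares with RpL13, so the 2 counts are not separate there. Both replicate lists held 6 of the 10 peaks, and neither held those of M1BP and Xrp1. Myc, Max, Thor, pont and rept had none.

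Elongation factors and ribosome-bound proteins had peaks at 5 of 11 (45.5%, 16.7 to 76.6), with eEF1alpha1 at 133, eEF1gamma at 129, bic at 92.3 and eEF5 at 69.4. Of these 5 peaks, 1 was in both replicate lists, that of eEF1gamma. A ranked summit lay within 100 bp of a start for 54.5% of the 11 genes, against 21.1% of all coding genes. Ribosome biogenesis genes had 7 of 27 (25.9%, 11.1 to 46.3), with eIF6, a factor that keeps the subunits apart, at 1257, Ns2 at 470, l(3)72Dn at 289 and NHP2 at 159. The list holds Rrp1 (151), which in Drosophila encodes an AP endonuclease, and without it 6 of 26 had a peak. Both replicate lists held 4 of the 7 peaks, that of Rrp1 among them. RNA polymerase I and III genes had 2 of 16 (12.5%, 1.55 to 38.3), Brf (265) and Polr3E (212), each in both replicate lists.

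**Figure D5:**
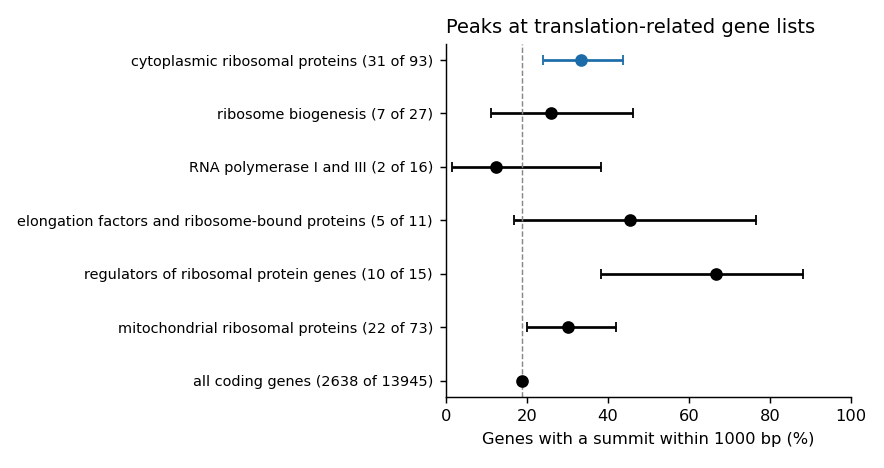
Percent of genes with a thresholded summit within 1000 bp of a start in 6 gene lists and in all coding genes; points are shares, bars 95% exact binomial intervals (counting error only) and the dashed line the 18.9% of all coding genes. The cytoplasmic ribosomal proteins are at 33.3%, and the highest share is 66.7%, for 10 of 15 regulators.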

How the data were processed

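The peak lists are on dm6, per the labels, and were selected by the irreproducible discovery rate (IDR), per the deposited README files. The deposited signal is the caller's value per peak, and −log10 IDR is as deposited in the ranked lists. A control experiment that the labels name and a region file behind the thresholded lists were not used here. Aligner, caller and read depth are not given in the sources used here, so no floor could be set. The series-level thresholded list of 5753 peaks (5750 on the arms) was the main one. Gene models were Ensembl release 115, on the same assembly as the peaks by arm names and lengths. Summits were measured from every annotated start of a gene, and its strongest summit within 1000 bp was used. Replicate values come from each replicate's ranked list, at a summit within 100 bp of the joint one. A further 16 columns of the series-level ranked lists, on matched peaks, were not used. No test was made, since there is 1 group and the genes and lists were chosen with earlier results of these data known. Shares carry 95% exact binomial intervals (scipy 1.17.1), and coding sequences were aligned with biopython 1.88. Of 72 listed names, 67 matched a symbol, 2 an older symbol, and 3 (eEF3, Tor and a repeated full name) no single gene. Counting was checked on 200 planted summits, all recovered. The alternatives were other distances, lists, thresholds and assignments.

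A few ribosomal protein genes are counted in the totals but not reported here by name. The named genes were, by rule, the other ribosomal protein genes, with values for the 10 strongest, for sets of relatives with a peak and by replicate support, and up to 4 genes of each other list. Trl, larp, Irbp18 and Mnt are those 4 for the regulators, and the other named regulators were chosen after their values were seen.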

Additional observations from a re-analysis of the deposited data

How the results depend on the processing

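The 31 genes with a peak were 33.3% of the family, against 18.9% of coding genes. Windows of 250, 500 and 2000 bp gave 28 (30.1%, against 12.3% of coding genes), 29 (31.2%, 15.8%) and 36 (38.7%, 24.4%). The conservative list gave 29 (31.2%, 18.6%), an IDR of 0.001 or less 21 (22.6%, 14.2%), summits with the gene's own start nearest 21 (22.6%, 14.1%) and leaving out genes named -like 31. The 21 with the own start nearest count weaker summits too, where the 19 below rest on each gene's strongest summit. Single replicates gave 18 to 22 (19.4% to 23.7%, against 14.9% and 14.3%). A 100 bp window, chosen after the data had been seen, gave 17 (18.3%, 4.22%). Among the 1000 strongest peaks the count was 4, a share of 4.3% that was near the 5.11% of coding genes, so the higher share of the family was not found there. The count in both replicate lists stayed at 12 to 14. The median distance of 107 bp became 81 bp (500 bp window), 77 bp (250 bp), 161.5 bp (2000 bp), 124 to 148 bp (single replicates), 161 bp (IDR 0.001), 495 bp (1000 strongest) and 47 bp (own start nearest). The median rank, 54.0% of the list, became 38.5% (IDR 0.001), 8.57% (1000 strongest), 62.1% (own start nearest) and 54.6% to 63.4% (single replicates). The 19 genes whose own start was nearest became 7 to 14 in single replicates, 10 at an IDR of 0.001 and 0 in the 1000 strongest. Shorter lists and windows hold fewer summits by construction. Other causes were not tested. No paired analysis was possible because there is only 1 group.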

Other observations

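Many ribosomal protein genes carry snoRNA genes in their introns, which guide the modification of ribosomal RNA. Of the 93 genes, 29 held an annotated snoRNA gene on their own strand, and 14 of these had a thresholded summit within 1000 bp of a start (48.3%), compared with 17 of the 64 without one (26.6%). Over all coding genes that host a snoRNA, 37 of 84 had a peak (44.0%), and the 29 are part of these 84. RpS5a held 14 such genes, RpS7 held 7 and RpS16 held 5, each with a summit within 100 bp of a start. RpL28 also held 5 and RpL3 held 4, and neither had a thresholded peak. The difference was noticed in the data and was not tested.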
